A study of Rattus norvegicus with 24 samples.

Results

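The aquaporin genes measured here are 8 rat genes for membrane channels of water and small solutes: Aqp1, Aqp3, Aqp4, Aqp5, Aqp7, Aqp8, Aqp9 and Aqp11. They were taken by gene name from the arrays, which gave 11 of 41012 gene probes, and 8 of 15318 genes with a current symbol. Aqp4 had 4 probes and each other gene 1. The rule matched probes by name, with no measured value in it. The 8 genes and the gene lists below were, however, chosen with earlier results of these data known. Of the 8 genes, 7 passed a filter on dim probes and were tested among 26834 features, and Aqp7 did not pass it.

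The study measured RNA of the distal colon in male (ACIxF344)F1-Pirc rats on 2-colour Agilent arrays. All rats of every group carried Apc-Pirc/+, a nonsense allele of the tumour suppressor Apc that gives rise to colonic tumours, so no group is free of it. Dextran sodium sulfate (DSS), a polymer that injures the colonic lining, was given at 4% in the drinking water (molecular weight 500000) between days 40 and 47 and between days 54 and 61. The 4 groups were colonic tumours of DSS rats, colonic tumours of untreated rats, normal colon of DSS rats and normal colon of untreated rats, with 5 rats in each and all rats aged 97 days. Each rat gave both a tumour and normal tissue. Cy3 carried the sample and Cy5 a pool of colon RNA from Apc wild type rats, with no dye swap. All values below are log2 ratios of sample over pool, so 0 is the pool's level and 1 is a doubling.

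Aquaporins are small integral membrane proteins that form a pore in each subunit of a tetramer, and water crosses them along the osmotic gradient set up by ion transport. The family is divided into classical water channels, aquaglyceroporins that also pass glycerol and other small neutral solutes, and a distant branch with altered pore motifs. In the colon, surface cells take up water behind sodium and chloride, and aquaporins of both kinds have been described in epithelial and non-epithelial cells there.

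The 24 arrays covered 20 samples of rat and tissue, because 4 samples had a second array, which was averaged with the first. The slides were split into 2 lots by the leading digits of their slide numbers, and no lot was read from a label. There were 3 rats per group in lot 1 and 2 rats per group in lot 2, and lot 2 was scanned on a day of its own. The share of probes with Cy3 well above background was 47.55 to 70.47% on 21 arrays and 86.85 to 95.15% on the other 3, which are called the raised arrays: the first array of normal colon of rat 2, the array of normal colon of rat 4 and the tumour array of rat 9. The normal colon arrays of DSS rats 1 and 5 correlated at 0.969 across the features tested, which are not independent replicates, and their difference had an SD of 0.152. That was below the SD of every pair of arrays of 1 sample, 0.158 to 0.363 (4 pairs, correlations 0.812 to 0.967). They were kept as separate rats as labelled, and aquaporin calls that rest on the normal colon of DSS rats are also given with the 2 counted as 1 sample, a check chosen after seeing the data. The number of arrays limits the precision.

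Sequences are shown for Aqp8, Aqp3 and Aqp9, since these 3 genes had the largest fitted changes among the aquaporins tested. The first is the array probe for Aqp8, on chromosome 1, as printed on the arrays, with the first stop codon read in frame from its first base in capitals at position 49 of 60.
Aqp8 probe: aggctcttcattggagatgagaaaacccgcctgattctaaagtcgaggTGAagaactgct
The next 3 are the windows from 250 bases before to 50 bases after the gene start in RefSeq (GRCr8), which lists 7 of the 8 genes. Capitals mark matches on either strand to AP-1 (TGANTCA), TCF/LEF (CTTTGA), CDX (TTTATG), the TATA box (TATAAA) or the CCAAT box (CCAAT), none of which shares bases with another in these windows.
Aqp8 promoter, chr1:187424193-187424492, plus strand: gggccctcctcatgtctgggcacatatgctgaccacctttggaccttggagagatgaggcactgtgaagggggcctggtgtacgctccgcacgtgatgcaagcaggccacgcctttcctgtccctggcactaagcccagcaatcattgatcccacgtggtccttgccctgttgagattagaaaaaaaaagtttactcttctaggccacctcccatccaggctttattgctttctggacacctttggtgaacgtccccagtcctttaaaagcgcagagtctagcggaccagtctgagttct
Aqp3 promoter, chr5:61040634-61040933, minus strand: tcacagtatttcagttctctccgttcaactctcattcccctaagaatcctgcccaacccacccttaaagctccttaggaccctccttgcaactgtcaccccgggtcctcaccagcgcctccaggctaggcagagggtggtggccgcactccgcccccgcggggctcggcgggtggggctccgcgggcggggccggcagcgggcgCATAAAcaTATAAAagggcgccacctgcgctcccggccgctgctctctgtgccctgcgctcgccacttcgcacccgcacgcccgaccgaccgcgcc
Aqp9 promoter, chr8:80718139-80718438, minus strand: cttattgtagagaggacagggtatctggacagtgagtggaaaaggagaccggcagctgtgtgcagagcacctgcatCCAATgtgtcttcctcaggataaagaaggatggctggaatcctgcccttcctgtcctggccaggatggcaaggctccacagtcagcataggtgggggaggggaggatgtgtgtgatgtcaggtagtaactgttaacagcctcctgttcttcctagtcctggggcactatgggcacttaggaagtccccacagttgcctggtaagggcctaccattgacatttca
The Aqp3 window held a TATA box match at -38 and a CDX match at -46, the Aqp9 window a CCAAT match at -174, and the Aqp8 window none of the 5. Among 33469 RefSeq windows of the same length, 14.2% held the TATA letters, 12.7% the CDX letters, 37.5% the CCAAT letters, 16.1% the TCF/LEF letters and 7.33% the AP-1 letters. The share of G and C was 53.7% for Aqp8, 67.3% for Aqp3 and 53.3% for Aqp9, against a median of 51.7% over all windows.

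Among classical channels, Aqp8 was lower in tumours whether or not DSS had been given, and Aqp5 was higher in normal colon after DSS. The aquaglyceroporins Aqp3 and Aqp9 were higher in that tissue too, and Aqp9 was also higher in tumours of untreated rats than in their normal colon. Aqp11 was lower in tumours of untreated rats. In DSS rats its change of -0.56 missed the threshold, though all 5 tumours lay below the normal colon of the same rat. No aquaporin passed between tumours of DSS rats and tumours of untreated rats.

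**Figure D1:**
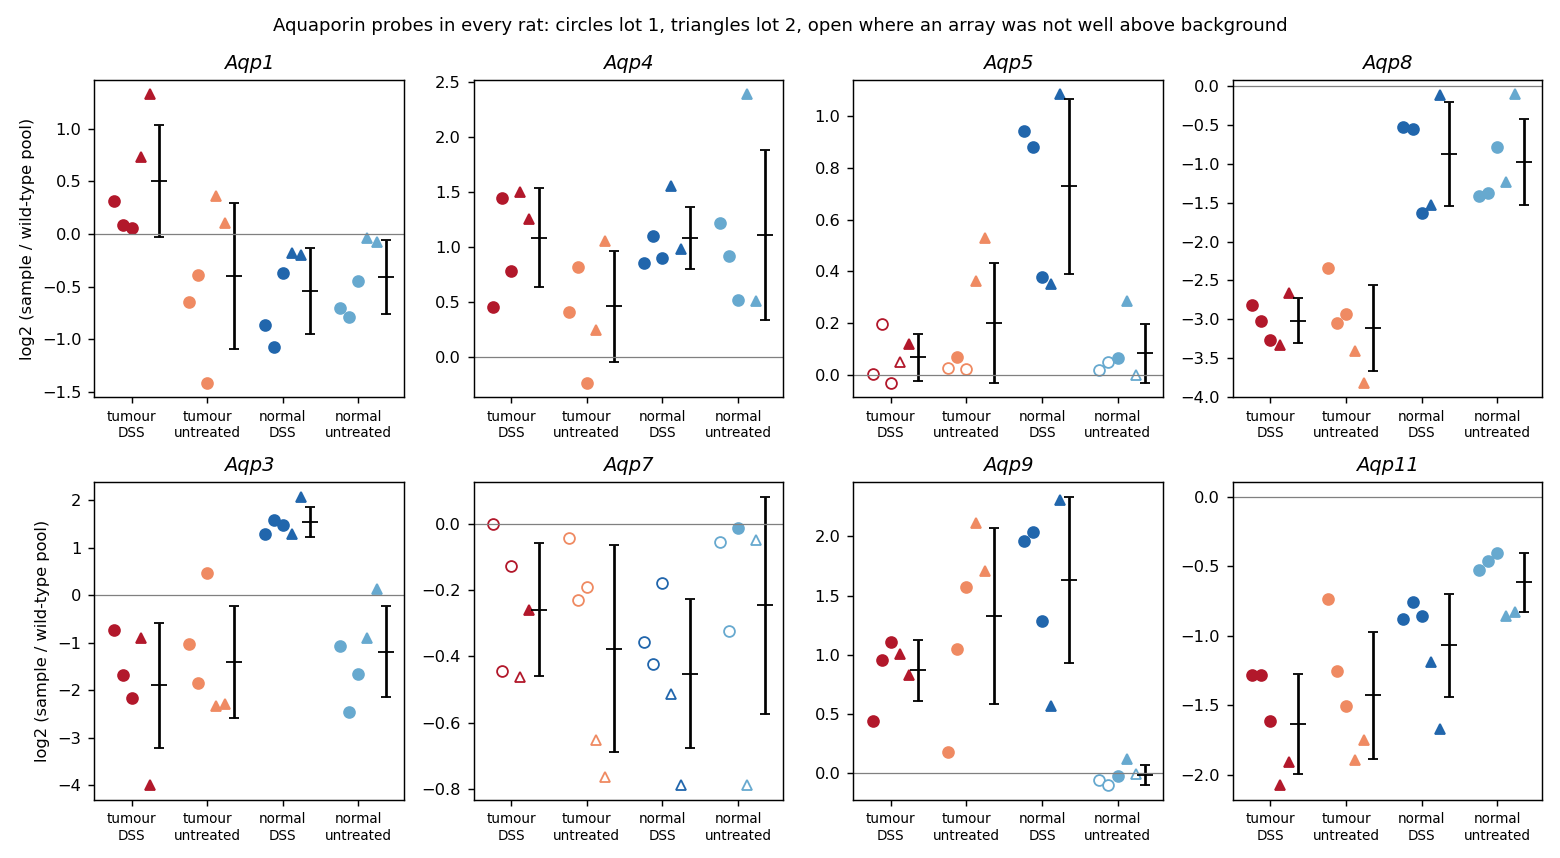
Log2 ratio of sample over wild-type pool (vertical axis) for the 8 aquaporins in each of the 4 groups, 1 point per rat, with bars for mean and SD (n = 5). Aqp4 is shown by its brightest probe; Aqp8 lies lower in all 10 tumours than in all 10 normal samples, and Aqp3 is above 1 in all 5 normal samples of DSS rats and in no other sample.

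In untreated rats, tumours differed from normal colon for 3 of the 7 aquaporins tested: Aqp9 was higher, and Aqp8 and Aqp11 were lower. Of all features tested, 18.0% passed in this comparison (limma, adjusted p under 0.05). The median change of the 7 was -0.22, against -0.00 over all features. In DSS rats, 4 of 7 passed, with Aqp1 higher and Aqp3, Aqp5 and Aqp8 lower, against 7.54% of all features, and the median of the 7 was -0.66, against 0.02 over all features. Between normal colon of DSS and untreated rats, Aqp3, Aqp5 and Aqp9 were higher and none lower, against 7.19% of all features, with a median of 0.11, against -0.02 over all. Between tumours of DSS and untreated rats 0 of 7 passed and 0% of all features did, with 1692 features at an unadjusted p under 0.05 in limma, Aqp1 among the aquaporins. For the difference of the DSS effects between tumours and normal colon, Aqp5 and Aqp9 passed, against 2.50% of all features. These comparisons share groups of samples, so their values are not independent of each other.

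**Figure D2:**
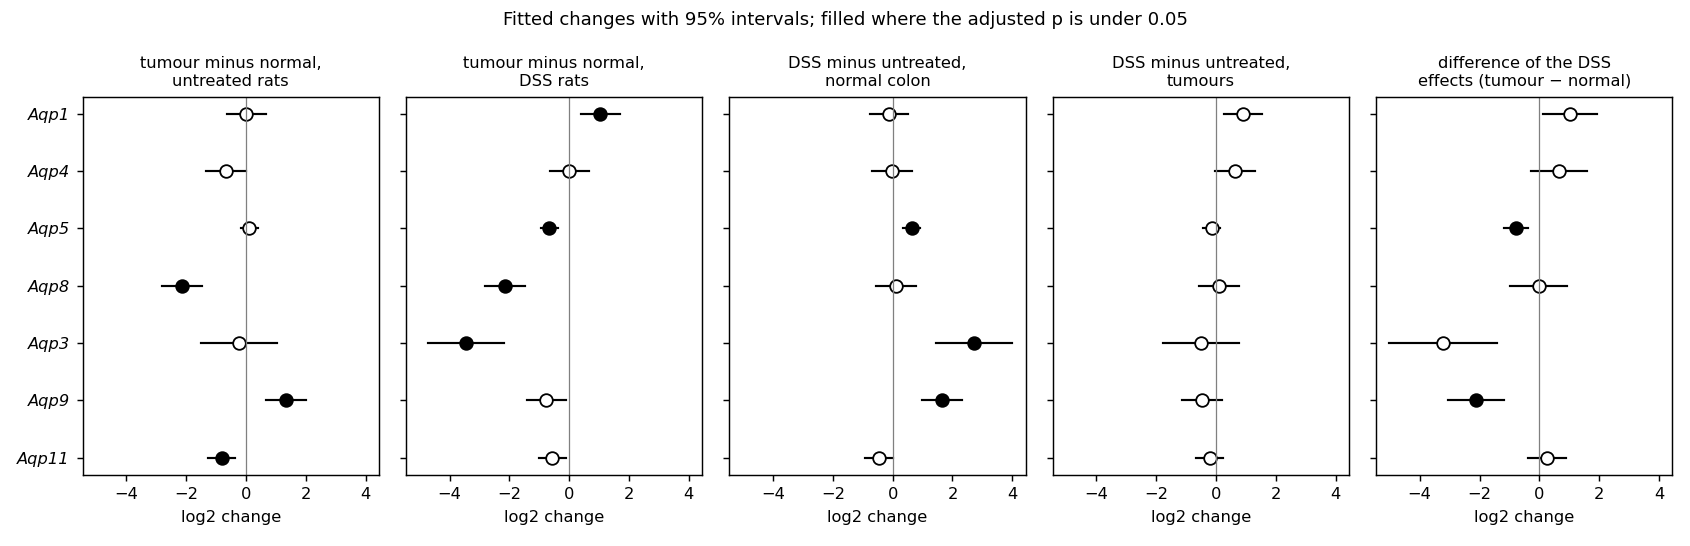
Fitted log2 change of each aquaporin tested (rows) in the 5 comparisons (columns), with 95% intervals and filled points where the adjusted p is under 0.05. Aqp8 lies near -2 in both comparisons of tumour with normal colon and near 0 in both comparisons of DSS with untreated.

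Aqp8 is a channel for water, and in mammals also for ammonia and hydrogen peroxide, that is found in absorptive colonic epithelium. Its ratio was -2.81, -3.03, -3.27, -3.34 and -2.66 in the tumours of DSS rats 1, 5, 6, 7 and 9, against -0.52, -0.55, -1.63, -1.53 and -0.11 in their normal colon. It was -2.34, -3.05, -2.94, -3.41 and -3.82 in the tumours of untreated rats 2, 3, 4, 8 and 10, against -1.41, -1.38, -0.78, -1.23 and -0.10 in their normal colon. The tumour and normal values did not overlap in either treatment, and each of the 10 tumours was below the normal colon of the same rat. Over all features, tumours and normal colon did not overlap for 12.4% in untreated rats and 7.63% in DSS rats. Between normal colon of DSS and untreated rats that share was 8.6%.

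Aqp8 fell by 2.15 ± 0.32 on the log2 scale in tumours of DSS rats (SE, 4.45-fold, adjusted p = 0.000343, n = 5 rats per group) and by 2.13 ± 0.32 in tumours of untreated rats (4.38-fold, adjusted p = 0.000186). The DSS effect was 0.09 in tumours (95% interval -0.58 to 0.76) and 0.11 in normal colon (-0.56 to 0.78), neither of which passed. Their difference was -0.02 (-0.97 to 0.93). With DSS rats 1 and 5 counted as 1 sample, the change in DSS rats was -2.07 (adjusted p = 0.0016). Centring each array on its median in place of loess gave -1.43 (adjusted p = 0.0863) in DSS rats and -2.25 (adjusted p = 0.00902) in untreated rats. Within lots 1 and 2 the change in untreated rats was -1.59 and -2.95 (adjusted p = 0.00877 and 0.0279). In DSS rats it was -2.14 and -2.18 (adjusted p = 0.00263 and 0.183).

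Some markers of absorptive colonocytes and most of the goblet cell markers measured also fell in tumours. The mean log2 ratio of the absorptive colonocyte markers, 12 of 12 measured, was -2.69 to -1.97 in tumours of DSS rats and -2.89 to -1.35 in tumours of untreated rats. It was -1.60 to -0.93 in normal colon of DSS rats and -1.37 to -0.42 in normal colon of untreated rats. In each group all 12 were well above background on every array. In untreated rats 5 of 12 fell and none rose, where 18.0% of all features passed. In DSS rats 4 of 12 fell and none rose, where 7.54% of all features passed. With median centring 0 of the 12 passed in DSS rats and the list's median was -0.11. Slc26a3, the chloride and bicarbonate exchanger of surface colonocytes, fell by 4.54 ± 0.73 in tumours of untreated rats (adjusted p = 0.000354) and by 3.83 ± 0.73 in those of DSS rats (adjusted p = 0.00286). Guca2a, the guanylin precursor, fell by 2.20 ± 0.38 in tumours of untreated rats (adjusted p = 0.000584), and Car4 by 2.41 ± 0.41 in those of DSS rats (adjusted p = 0.00115). Of 5 goblet cell markers measured of 8 listed, 4 fell in tumours of either treatment, and with median centring 2 fell in DSS rats. Their mean ratio was -3.10 to -2.16 in tumours of DSS rats, against -1.26 to -0.42 in their normal colon, and -3.07 to -1.14 in tumours of untreated rats, against -0.27 to 0.33 in their normal colon. Tff3, a trefoil peptide of goblet cells, fell by 2.39 ± 0.30 in DSS rats and by 2.26 ± 0.30 in untreated rats (adjusted p = 5.71e-05 and 6.61e-05). Clca1, secreted with mucus, fell by 3.29 ± 0.56 in tumours of DSS rats, and Zg16, a mucus lectin, by 2.51 ± 0.40 in those of untreated rats (adjusted p = 0.00121 and 0.000312). The 7 general epithelial markers had medians of -0.25 in untreated rats and -0.06 in DSS rats, with 1 lower in untreated rats and 0 passing in DSS rats. In bulk tissue, fewer cells of a type and less RNA per cell cannot be told apart, and the part of these markers in the Aqp8 result was not tested.

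Aqp1 is a constitutive water channel known in endothelium, red cells and enteric tissue. Its ratio was 0.32, 0.08, 0.06, 0.73 and 1.33 in the tumours of DSS rats 1, 5, 6, 7 and 9, against -0.87, -1.07, -0.37, -0.18 and -0.20 in their normal colon. It was -0.64, -0.39, -1.42, 0.36 and 0.11 in the tumours of untreated rats 2, 3, 4, 8 and 10, against -0.70, -0.79, -0.45, -0.03 and -0.07 in their normal colon. The DSS rats' tumours lay above all their normal samples, and the untreated groups overlapped. In each of the 4 groups the Aqp1 ratios of lot 2 lay above all those of lot 1.

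Aqp1 rose by 1.04 ± 0.31 in tumours of DSS rats (2.06-fold, adjusted p = 0.0447), in 5 of 5 rats. This call was lost under 12 of 26 alternatives. Among these were rats 1 and 5 counted as 1 sample (0.93, adjusted p = 0.121) and the fit without the raised arrays (0.83, adjusted p = 0.149). Without the filter on dim probes the adjusted p was 0.0621. The scanner software's processed signals and lot 2 alone also lost the call. It was lost too when any 1 of rats 1, 2, 3, 5, 6, 7 and 9 was left out, with values of 0.92 to 1.19 and adjusted p of 0.0571 to 0.134. The rat as a fixed block gave 1.04 (adjusted p = 0.00733). Over all 26 alternatives the change was 0.83 to 1.67 and the limma adjusted p ran between 0.000891 and 0.149. In untreated rats the change was 0.01 (-0.63 to 0.66), and the difference of the DSS effects was 1.03 ± 0.43 (adjusted p = 0.256), which passed with lot as a block (adjusted p = 0.026). Between tumours of DSS and untreated rats the change was 0.90 ± 0.31 (adjusted p = 0.543).

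The 10 endothelial markers, 10 of 10 measured, gave a median change of 0.01 in tumours of DSS rats with 0 passing. Their mean ratio was -0.35 to 0.15 in tumours of DSS rats and -0.52 to -0.03 in tumours of untreated rats, against -0.19 to -0.10 in normal colon of DSS rats and -0.62 to -0.12 in that of untreated rats. Tek was above background on no array of tumours of untreated rats or of normal colon of DSS rats. Pecam1, the endothelial adhesion molecule CD31, changed by 0.02 ± 0.05 in tumours of DSS rats. Of the 4 red cell markers measured of 6 listed, 0 passed, with a median of 0.08, and their mean ratio was -0.84 to 0.39 in tumours of DSS rats, against -0.98 to 0.79 in their normal colon. Both highest values were those of rat 9, whose Aqp1 ratio was 1.33 in the tumour and -0.20 in normal colon. Smooth muscle markers, 6 of 9 measured, had 2 lower in tumours of untreated rats, Des at -1.62 ± 0.36 and Smtn at -0.83 ± 0.24 (adjusted p = 0.00427 and 0.0203), and 0 passing in those of DSS rats. With median centring 1 fell in untreated rats and 1 rose in DSS rats. In the main fit 18.0% of all features passed in tumours of untreated rats and 7.54% in those of DSS rats. The part of these cell types in the Aqp1 result was not tested.

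Aqp5 is a water channel of the apical membrane of secretory glands and of lung epithelium. Its ratio was 0.94, 0.88, 0.38, 0.35 and 1.09 in the normal colon of DSS rats 1, 5, 6, 7 and 9, against 0.02, 0.05, 0.06, 0.28 and 0.00 in normal colon of untreated rats 2, 3, 4, 8 and 10. Every DSS sample was above every untreated one. The tumour values were 0.00, 0.20, -0.03, 0.05 and 0.12 in DSS rats and 0.03, 0.07, 0.02, 0.36 and 0.53 in untreated rats.

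Aqp5 was a dim probe. It was well above background on 6 of 6 arrays of normal colon of DSS rats and on 3 of 7 of normal colon of untreated rats, of which 2 were raised arrays. It was above on 1 of 6 arrays of tumours of DSS rats, the raised one, and on 3 of 5 of tumours of untreated rats, and the pool was above on 6 of 24 arrays. In normal colon it rose by 0.65 ± 0.14 with DSS (1.57-fold, adjusted p = 0.00637), and it fell by 0.66 ± 0.14 in tumours of DSS rats (1.58-fold, adjusted p = 0.0046), in 5 of 5 rats. With rats 1 and 5 counted as 1 sample the values were 0.600 and -0.62 (adjusted p = 0.0207 and 0.0169). Within lots 1 and 2 the rise was 0.69 and 0.58 (adjusted p = 0.00796 and 0.433). With the scanner software's processed signals, which carry no added offset, these values were 2.11 and -2.14, so the size depends on how dim signal is handled. The difference of the DSS effects was -0.78 ± 0.19 (adjusted p = 0.035). It missed the threshold with rats 1 and 5 counted as 1 sample (-0.74, adjusted p = 0.0674), without the raised arrays (-0.78, adjusted p = 0.0937) and without rat 1, 3, 4, 5, 8, 9 or 10 (adjusted p of 0.0695 to 0.122).

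Aqp4, the orthogonal-array water channel of glia and of gastric parietal cells, did not pass in any comparison. Its brightest probe was 0.45, 1.44, 0.78, 1.498 and 1.25 in tumours of DSS rats 1, 5, 6, 7 and 9 and 0.41, 0.82, -0.24, 0.25 and 1.06 in tumours of untreated rats 2, 3, 4, 8 and 10. Normal colon gave 0.86, 1.10, 0.89, 1.55 and 0.98 in DSS rats and 1.22, 0.91, 0.52, 2.39 and 0.50 in untreated rats. The groups overlapped in all 4 comparisons. The widest of these 4 changes was in tumours of untreated rats, at -0.65 (-1.32 to 0.02, adjusted p = 0.184). The other 3 probes gave -0.33, -0.01 and -0.23 there, with 0 of the 4 passing. Enteric nerve and glia markers, 7 of 8 measured, gave a median of -0.05 in that comparison, and S100b was above background on no array of tumours of either treatment.

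Aqp3 is an aquaglyceroporin for water, glycerol and hydrogen peroxide, known in stratified epithelium and in the basolateral membrane of colonic epithelium. Its ratio was 1.29, 1.58, 1.48, 1.29 and 2.08 in the normal colon of DSS rats 1, 5, 6, 7 and 9, against -1.07, -2.46, -1.65, -0.89 and 0.14 in normal colon of untreated rats 2, 3, 4, 8 and 10. All 5 DSS samples lay above all 5 untreated samples. The tumours of DSS rats gave -0.73, -1.68, -2.17, -0.89 and -4.01, each below the normal colon of the same rat (differences of -6.09 to -2.02). Those of untreated rats gave -1.04, -1.86, 0.48, -2.33 and -2.30, with no common direction against their own normal colon (higher in 3 of 5).

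Aqp3 rose by 2.73 ± 0.60 in normal colon with DSS (6.65-fold, adjusted p = 0.00958) and fell by 3.44 ± 0.60 in tumours of DSS rats (10.9-fold, adjusted p = 0.00148). Cy3 was saturated on 3 of 24 arrays, all of normal colon of DSS rats, 2 of rat 6 and 1 of rat 7, so the readings of these rats, and with them both folds, may be too low. With rats 1 and 5 counted as 1 sample the values were 2.76 (adjusted p = 0.0207) and -3.47 (adjusted p = 0.00461), and with median centring 2.404 (adjusted p = 0.106) and -2.60 (adjusted p = 0.0479). Within lots 1 and 2 the rise in normal colon was 3.18 and 2.06 (adjusted p = 0.00585 and 0.468). The change in untreated tumours was -0.22 (-1.49 to 1.05), with 0.92 in lot 1 and -1.93 in lot 2, and that in tumours with DSS was -0.49 (-1.76 to 0.78). The difference of the DSS effects, -3.22 ± 0.85, missed the threshold at adjusted p = 0.0523 and passed under 9 of 26 alternatives. Among these were the rat as a random block (adjusted p = 0.0216) and lot as a block (adjusted p = 0.039). Over all 26 the adjusted p ran between 0.0104 and 0.524.

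Markers of squamous epithelium moved with Aqp3. Of 13 markers listed, 8 were on the array and 7 were measured. In normal colon with DSS 7 of 7 rose, and in tumours of DSS rats 7 of 7 fell, also with rats 1 and 5 counted as 1 sample. The shares of all features that passed were 7.19% and 7.54% in that order. Krt5, a keratin of the basal layer of stratified epithelium, rose by 2.53 ± 0.21 in normal colon with DSS (adjusted p = 1.77e-06) and fell by 2.65 ± 0.21 in tumours of DSS rats (adjusted p = 1.12e-06). Krt10, a keratin of the layers above it, rose by 3.17 ± 0.29 and fell by 3.57 ± 0.29 in the same comparisons (adjusted p = 5.1e-06 and 1.71e-06). Between tissues the DSS effects differed by -2.55 ± 0.29 for Krt5 and -3.17 ± 0.42 for Krt10 (adjusted p = 0.000237 and 0.000546). The mean ratio of the 7 was 2.25 to 3.94 in normal colon of DSS rats, against -0.31 to 1.40 in normal colon of untreated rats, -0.05 to 0.43 in tumours of DSS rats and -0.01 to 0.56 in tumours of untreated rats. In normal colon of untreated rats, rat 8 had the highest marker level, 1.40, and an Aqp3 ratio of -0.89, and rat 10 had the highest Aqp3 ratio, 0.14, and a marker level of -0.06. Of 2 urothelial markers measured of 5 listed, 1 rose in the same tissue, and their mean ratio was 0.24 to 2.54 there, against -2.76 to -0.87 in normal colon of untreated rats. Ivl, a marker of the outer squamous layers, was above background on no array of normal colon of DSS rats. The part of these markers in the Aqp3 result was not tested.

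**Figure D3:**
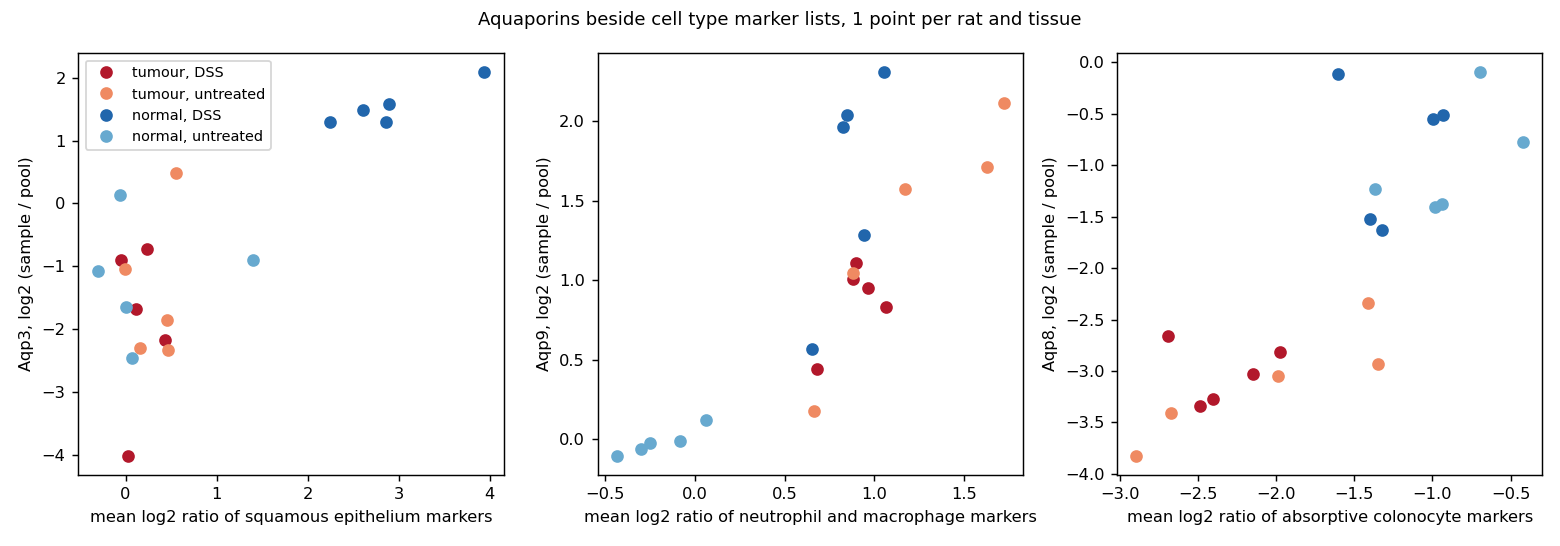
Log2 ratio of an aquaporin (vertical axis) against the mean log2 ratio of a marker list (horizontal axis), 1 point per rat and tissue (n = 20): Aqp3 with 7 squamous markers, Aqp9 with 9 neutrophil and macrophage markers, and Aqp8 with 12 absorptive colonocyte markers. Normal colon of DSS rats stands apart in the first panel, at marker levels above 2.

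Aqp9 is an aquaglyceroporin of hepatocytes and of leukocytes that also passes urea and monocarboxylates. Its ratio was 1.96, 2.04, 1.29, 0.57 and 2.31 in normal colon of DSS rats 1, 5, 6, 7 and 9, against -0.06, -0.10, -0.02, 0.12 and -0.01 in normal colon of untreated rats 2, 3, 4, 8 and 10. Tumours gave 0.44, 0.95, 1.11, 1.01 and 0.83 in DSS rats and 0.18, 1.05, 1.57, 2.11 and 1.71 in untreated rats. The normal colon of untreated rats lay below every sample of the other groups. The probe was above background on 3 of 7 arrays there, of which 2 were raised, and on every array of the other groups, so most values of that group are those of a dim spot. The pool was above background on 14 of 24 arrays.

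Aqp9 rose by 1.65 ± 0.32 in normal colon with DSS (3.13-fold, adjusted p = 0.00331; 1.56 and adjusted p = 0.0116 with rats 1 and 5 counted as 1 sample) and by 1.34 ± 0.32 in tumours of untreated rats (2.53-fold, adjusted p = 0.00633), in 5 of 5 rats. With the processed signals the values were 3.81 and 3.596. In DSS rats the change in tumours was -0.76 ± 0.32 (adjusted p = 0.174), and it passed with array weights (adjusted p = 0.00891). The difference of the DSS effects was -2.10 ± 0.45 (adjusted p = 0.0151). It was -2.01 (adjusted p = 0.0333) with rats 1 and 5 counted as 1 sample and -2.07 (adjusted p = 0.0594) without the raised arrays. It also missed the threshold without rat 1, 4, 5 or 9 (adjusted p of 0.0539 to 0.0695) and with median centring (-1.96, adjusted p = 0.0681). Within lots 1 and 2 the rise in tumours of untreated rats was 0.996 and 1.86 (adjusted p = 0.0703 and 0.0789).

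Markers of neutrophils and macrophages, 9 of 10 measured, were lowest in normal colon of untreated rats, as was Aqp9, but their order among the other groups differed from that of Aqp9. The list averaged 0.90 for tumours with DSS, 1.22 for untreated tumours and 0.86 for normal tissue with DSS, against -0.20 for untreated normal tissue. In tumours of untreated rats 5 of 9 rose, where 18.0% of all features passed. In normal colon with DSS 4 of 9 rose (3 with rats 1 and 5 counted as 1 sample), where 7.19% of all features passed. Of the 9 markers 0 fell in either. Their mean ratio was 0.68 to 1.06 in tumours of DSS rats, 0.67 to 1.72 in tumours of untreated rats and 0.65 to 1.05 in normal colon of DSS rats, against -0.44 to 0.06 in normal colon of untreated rats. S100a8, a calcium-binding protein of neutrophils, rose by 3.62 ± 0.39 in tumours of untreated rats (adjusted p = 8.59e-06) and by 3.15 ± 0.39 in normal colon with DSS (adjusted p = 6.06e-05). S100a9, its partner, rose by 3.90 ± 0.39 in tumours of untreated rats (adjusted p = 3.88e-06), and Lyz2, a lysozyme, by 2.29 ± 0.31 in normal colon with DSS (adjusted p = 0.000168). Between tissues the DSS effects differed by -4.36 ± 0.55 for S100a8 and -3.69 ± 0.55 for S100a9 (adjusted p = 0.000419 and 0.00109). Mpo was above background on no array of tumours of untreated rats or of normal colon of DSS rats, and Itgam on none of the 6 arrays of normal colon of DSS rats. The part of these cells in the Aqp9 result was not tested.

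Aqp7, the glycerol channel of adipocytes, was above background on 3 of 24 arrays, which were the 3 raised arrays. It was above on none of the 6 arrays of normal colon of DSS rats or the 5 of tumours of untreated rats, and it was not tested. It lies next to Aqp3 in the RefSeq gene order. Its ratios were -0.46 to -0.00 in tumours of DSS rats, -0.76 to -0.05 in tumours of untreated rats, -0.79 to -0.18 in normal colon of DSS rats and -0.79 to -0.01 in normal colon of untreated rats. For this probe the pool was above background on 17 of 24 arrays. Adipocyte markers, 6 of 8 measured, had a mean ratio of -0.70 to -0.08 in tumours of DSS rats, -0.49 to 0.18 in tumours of untreated rats, -0.59 to 0.04 in normal colon of DSS rats and -1.25 to -0.17 in normal colon of untreated rats. In tumours of untreated rats 2 of 6 rose, Adipoq by 2.03 ± 0.38 and Fabp4 by 1.44 ± 0.48 (adjusted p = 0.00115 and 0.0434), and with median centring 0 passed. Of all features 18.0% passed in that comparison in the main fit.

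Aqp11, an aquaporin of intracellular membranes with an altered pore motif, had its highest mean in normal colon of untreated rats. Its ratio was -1.28, -1.28, -1.61, -2.07 and -1.91 in tumours of DSS rats 1, 5, 6, 7 and 9, against -0.88, -0.75, -0.86, -1.19 and -1.67 in their normal colon. It was -0.74, -1.25, -1.51, -1.89 and -1.75 in tumours of untreated rats 2, 3, 4, 8 and 10, against -0.53, -0.46, -0.41, -0.86 and -0.83 in their normal colon. The groups overlapped, but all 10 tumours were below the normal colon of the same rat. In each of the 4 groups the rats of lot 2 lay below all rats of lot 1. Within either lot, tumours and normal colon did not overlap in either treatment.

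Aqp11 fell by 0.81 ± 0.22 in tumours of untreated rats (1.75-fold, adjusted p = 0.0138), and without rat 4 or rat 8 the adjusted p was 0.0672 and 0.0533. With median centring it was -0.94 (adjusted p = 0.548). In DSS rats the change was -0.56 ± 0.22 (adjusted p = 0.139), and it passed with the rat as a fixed block (adjusted p = 0.0185) or random block (adjusted p = 0.0414). With median centring it was 0.11, of the opposite sign. Within lots 1 and 2 it was -0.56 in both (adjusted p = 0.0701 and 0.26), and with lot as a block -0.56 (adjusted p = 0.00527). The DSS effect in normal colon was -0.45 (-0.91 to 0.00; adjusted p = 0.244), and it passed with lot as a block (adjusted p = 0.0206).

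**Figure D4:**
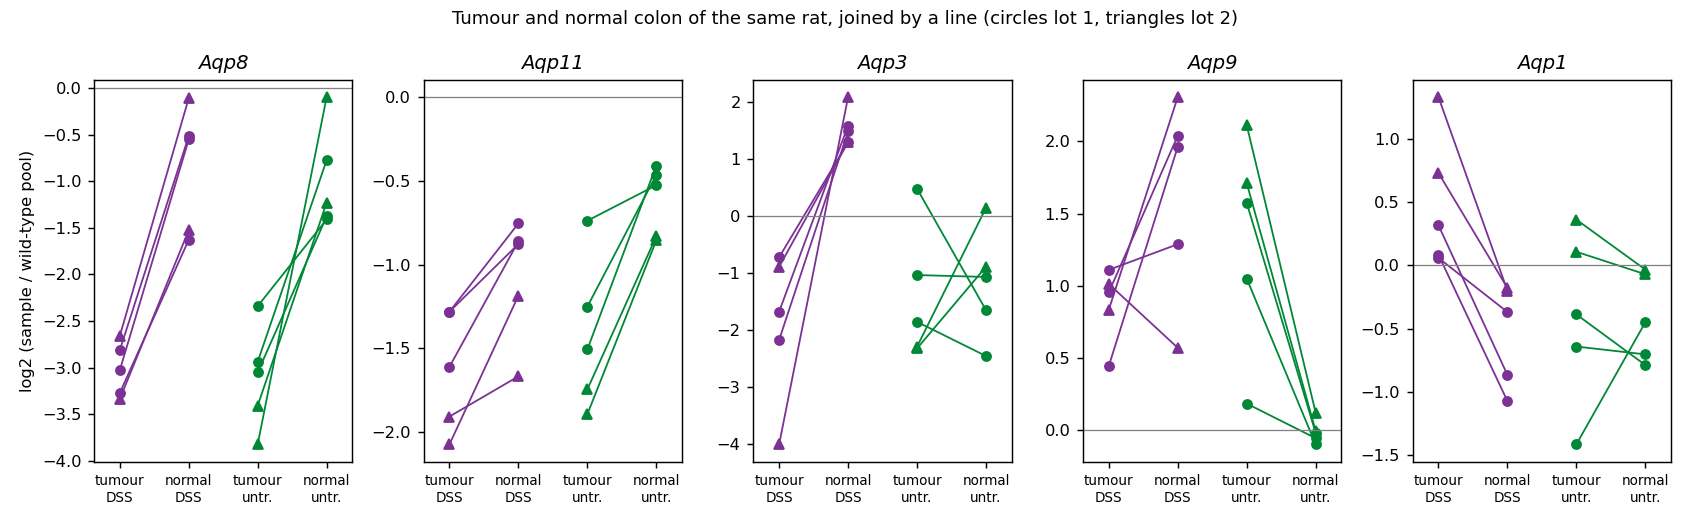
Log2 ratio of sample over pool (vertical axis) in the tumour and the normal colon of the same rat, joined by a line, for DSS and untreated rats (n = 5 each). For Aqp8 and Aqp11 all 10 tumours lie below the normal colon of the same rat, and for Aqp3 all 5 tumours of DSS rats do.

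The 4 groups can be ordered by their mean ratio. For Aqp3 the order was normal colon of DSS rats (1.55 ± 0.32), normal colon of untreated rats (-1.19 ± 0.96), tumours of untreated rats (-1.41 ± 1.17) and tumours of DSS rats (-1.90 ± 1.32; SD, n = 5 each). The first did not overlap the second, and the lower 3 overlapped in that order. For Aqp8 it was normal colon of DSS rats (-0.87 ± 0.67), normal colon of untreated rats (-0.98 ± 0.55), tumours of DSS rats (-3.02 ± 0.29) and tumours of untreated rats (-3.11 ± 0.55), and all normal samples lay above all tumours. For Aqp9 it was normal colon of DSS rats (1.63 ± 0.70), tumours of untreated rats (1.33 ± 0.75), tumours of DSS rats (0.87 ± 0.26) and normal colon of untreated rats (-0.01 ± 0.08), and tumours of DSS rats did not overlap the last. For Aqp1, Aqp4, Aqp5, Aqp7 and Aqp11 each neighbour in the order overlapped the next.

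The genes whose pattern was most alike were those with the smallest root mean square difference of centred log2 ratios over the 20 samples, among 12523 features with a current symbol. For Aqp8 these were Paqr5 (0.39), Bace2 (0.43) and Acaa1b (0.43). Aqp8 itself had an SD of 1.21 over the samples. Paqr5, a membrane progestin receptor, fell by 1.85 ± 0.25 in tumours of untreated rats and by 1.90 ± 0.25 in those of DSS rats. For Aqp3 they were Klk6, Ido1 and Tprg1, at 0.94 each, against an SD of 1.66. Klk6, a kallikrein-related protease, rose by 2.43 ± 0.21 in normal colon with DSS. For Aqp9 they were Phlda3, Ttc9 and P2ry2 (0.28, 0.28 and 0.29; SD 0.80). P2ry2, a receptor for extracellular nucleotides, rose by 1.79 ± 0.27 in normal colon with DSS and by 1.38 ± 0.27 in tumours of untreated rats. For Aqp11 they were Cox4i1, Ctbs and Ppp1r14d (0.13 to 0.16; SD 0.52), for Aqp5 Hmx1, Epha7 and Tmprss13 (0.14 to 0.15; SD 0.34) and for Aqp1 Svip, Hat1 and Phf10 (about 0.30; SD 0.64). Likeness says nothing of shared function.

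The 5 other aquaporin genes were Mip, Aqp2, Aqp6, Aqp10 and Aqp12a. Of these, 4 were measured, and 0 passed in any of the 5 comparisons, with medians of -0.03 in tumours of untreated rats and 0.02 in tumours of DSS rats. Their median was 0.00 between normal colon of DSS and untreated rats.

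Water crosses aquaporins behind salt uptake, so genes of sodium and chloride absorption were listed with them. Of 16 listed, 14 were measured. In tumours of untreated rats 10 fell and 1 rose, with a median of -1.51, and in those of DSS rats 6 fell and 1 rose, with a median of -1.06. Over all features, 18.0% passed in tumours of untreated rats, 7.54% in those of DSS rats and 7.19% in normal colon with DSS. Sgk1, a kinase that raises epithelial sodium uptake, fell by 3.44 ± 0.45 (adjusted p = 6.31e-05) and by 2.79 ± 0.45 (adjusted p = 0.000683) in tumours of untreated and of DSS rats. Nr3c2, the mineralocorticoid receptor, fell by 2.09 ± 0.30 in tumours of untreated rats (adjusted p = 0.000144), and Car4, a membrane carbonic anhydrase, by 2.41 ± 0.41 in tumours of DSS rats (adjusted p = 0.00115). In normal colon with DSS 2 fell, Hsd11b2 by 1.21 ± 0.26 and Nr3c2 by 1.02 ± 0.30 (adjusted p = 0.00758 and 0.0492), and in tumours with DSS 0 of 14 passed. With median centring 0 of 14 passed in tumours of DSS rats and 6 fell in tumours of untreated rats.

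Of 14 genes of glycerol handling, 12 were measured, with 2 higher and 1 lower in tumours of untreated rats, 0 and 2 in tumours of DSS rats, and 1 and 1 in normal colon with DSS. The list's medians were -0.058, -0.011 and 0.003 in that order, against -0.002, 0.022 and -0.015 over all features. The shares of all features that passed were 18.0%, 7.54% and 7.19%. With median centring the list's counts were 1 and 1, 0 and 0, and 0 and 1, and with rats 1 and 5 counted as 1 sample 0 passed in tumours of DSS rats. Dgat2, which makes triglyceride, rose by 2.85 ± 0.26 in tumours of untreated rats (adjusted p = 1.82e-06) and by 1.94 ± 0.26 in normal colon with DSS (adjusted p = 0.000146). Pck1, the gluconeogenic and glyceroneogenic carboxykinase, fell by 3.73 ± 0.47 in tumours of untreated rats, by 1.74 ± 0.47 in tumours of DSS rats and by 2.08 ± 0.47 in normal colon with DSS (adjusted p = 4e-05, 0.0262 and 0.0103). Gk, glycerol kinase, fell by 0.79 ± 0.23 in tumours of DSS rats (adjusted p = 0.0368).

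Aqp3, Aqp8 and Aqp9 also pass hydrogen peroxide, and 19 of 20 genes of its production and removal were measured. In tumours of untreated rats 7 rose and 0 fell, in tumours of DSS rats 5 rose and 1 fell, and in normal colon with DSS 3 rose and 1 fell. The shares of all features that passed were 18.0%, 7.54% and 7.19% in that order. The list's medians were 0.168, 0.215 and 0.283, against -0.002, 0.022 and -0.015 over all features. Noxo1, an organizer of the colonic NADPH oxidase, rose by 2.29 ± 0.18 in tumours of untreated rats (adjusted p = 4.38e-07) and by 1.15 ± 0.18 in normal colon with DSS (adjusted p = 0.000722). Gpx2, the gut glutathione peroxidase, rose by 3.61 ± 0.31 and by 1.55 ± 0.31 in the same comparisons (adjusted p = 8.56e-07 and 0.00432). With median centring the counts were 3 higher, 3 higher and 0, and none lower. The difference of the DSS effects was -1.43 ± 0.26 for Noxo1 and -2.21 ± 0.43 for Gpx2 (adjusted p = 0.00533 and 0.00901). Sod1 rose by 0.59 ± 0.11 and Prdx1 by 1.10 ± 0.23 in tumours of DSS rats (adjusted p = 0.00209 and 0.0049).

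Of 19 genes listed as aquaporin regulators, 16 were measured. In tumours of untreated rats 2 rose and 6 fell, in those of DSS rats 0 rose and 1 fell, and in normal colon with DSS 1 rose and 1 fell. The shares of all features that passed were 18.0%, 7.54% and 7.19% in that order. The list's medians were -0.076, -0.045 and -0.206, against -0.002, 0.022 and -0.015 over all features. Prkacb, a catalytic subunit of protein kinase A, fell by 1.79 ± 0.31 in tumours of untreated rats and by 1.30 ± 0.31 in normal colon with DSS (adjusted p = 0.000608 and 0.0148). Prkar1a, a regulatory subunit, rose by 0.44 ± 0.11 in normal colon with DSS (adjusted p = 0.0232). With median centring 1 gene fell in tumours of untreated rats and 0 passed in the other comparisons.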

How the data were processed

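RNA of 20 samples of rat and tissue was hybridised to 24 Agilent arrays with 2 colours. Per the file headers, the deposited files hold scanner intensity values from Feature Extraction 9.1.3.1 and its log10 ratio of Cy5 over Cy3. Per the submitters' processing notes, Partek was also named, with no role; no genome build is given in the sources used here. From the deposited mean and background intensities, ratios were made with limma 3.58.1 in R 4.3.3: normexp with an offset of 50, then loess within arrays with control and non-uniform spots at weight 0. The offset understates changes of dim probes. The deposited log10 ratios served as a check only: they equalled those of the software's processed signals within 0.01 on 75.11 to 98.87% of gene spots per array and were 0 on the rest. The processed signals, without an offset, were an alternative. Probes with Cy3 well above background on at least 5 of 24 arrays were kept, and the brightest probe stood for a gene. Second arrays were averaged. A limma model with a mean for each of 4 groups gave moderated tests, two-sided, with Benjamini-Hochberg adjustment over 26834 features and a threshold of 0.05. Names came from RefSeq accessions (11020 probes), current symbols (5174) or older names (3442); 21376 probes kept the file's name. Tumour and normal tissue of a rat are paired by the animal: their deviations from group means correlated at 0.078 to 0.568 (10 rats). Both tissues of a rat also shared a lot and a slide, and the group means took no account of lot. The part of the animal in these correlations therefore cannot be told apart from that of lot and slide. The members and gene lists were chosen with earlier results of these data known. The test was checked on simulated data. The genes named were the 8 aquaporins, the 3 most alike genes for each that passed, the 2 members of smallest p of each list where at least 2 passed, and first markers of cell types.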

Additional observations from a re-analysis of the deposited data

Results flagged for a closer look

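Among 44 groups of 5 samples, 3 held a sample set apart from the other 4, its gap to the nearest sample exceeding Dixon's 95% critical share of the group's range; chance gives about 1 in 20. One Aqp4 probe, A_44_P448461, was 0.473 in normal colon of untreated rat 8, against 0.081 in the nearest sample. Another, A_44_P934428, was 0.721 in the tumour of untreated rat 3, against 0.245 in the nearest. Aqp5 was 0.284 in normal colon of untreated rat 8, against 0.063 in the nearest, and that rat also had the highest squamous marker level of its group, 1.40.

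The DSS effect differed between tumours and normal colon for Aqp5 (-0.781, limma adjusted p = 0.035) and for Aqp9 (-2.104, adjusted p = 0.0151). The call was lost under 11 of 26 alternatives for Aqp5, a dim probe, and under 8 of 26 for Aqp9. Both calls were lost without the raised arrays.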

How the results depend on the processing

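Over the 7 aquaporins and 5 comparisons, 25 or 26 alternatives each gave 835 values with the call unchanged, 44 with a call lost, 17 with one gained and 0 called values of opposite sign. One of the alternatives, Aquantile scaling between arrays, leaves the log2 ratios as they are. Its calls were therefore those of the main fit from the start and say nothing of stability. It is counted in the 835, and in the 26 alternatives given for Aqp1 and Aqp3. The difference of the DSS effects, with 2 aquaporins past the threshold, was least stable: 1 passed with median centring, in lot 1 alone and with rats 1 and 5 counted as 1 sample, 4 with lot as a block, 0 in lot 2 alone and 0 without the raised arrays. In lot 2 alone, with 2 rats per group, 0 aquaporins passed between tumours and normal colon of DSS rats and 0 between normal colon of DSS and untreated rats. Leaving out each rat gave 2 to 3 aquaporins for tumours of untreated rats, 3 to 4 for tumours of DSS rats, 3 for normal colon with DSS, 0 for tumours with DSS and 0 to 2 for the difference. Counts over all features, in the order tumours of untreated rats, tumours of DSS rats, normal colon with DSS and the difference, were 4820, 2022, 1930 and 670, and with median centring 918, 659, 367 and 190. That centring moved the median of all features to 0.25 in tumours of DSS rats, 0.22 in tumours with DSS and 0.38 for the difference, and under it the share of higher calls in normal colon with DSS was 297 of 367, against 1040 of 1930. Array weights gave 4129, 6166 and 1432 for the last 3, lot as a block 3243, 3537 and 1372, and lot 2 alone 2469, 111, 2 and 3. For normal colon with DSS and the difference, slide as a block gave 2981 and 1220 and lot 1 alone 3157 and 423. For the difference, processed signals gave 1247 and dropping the raised arrays 316. Counting rats 1 and 5 as 1 sample gave 1392, 1445 and 502 for the last 3. The rat as a fixed replicate block gave 3313 features for tumours of DSS rats and 1516 for the difference, and as a random block 3431 and 1678. Among aquaporins the rat as a block changed the call of Aqp11 in tumours of DSS rats (both blocks) and of Aqp3 for the difference (random block, adjusted p = 0.0216), and no other. A fixed rat block cannot give the DSS effects, since each rat had 1 treatment. Leaving out a rat gave 2651 to 5216, 1096 to 2095, 1190 to 2223 and 319 to 808 features, and 0 to 3 for tumours with DSS. Arrays of 1 sample differed by up to 0.84 for Aqp3 and 0.74 for Aqp9.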
